A study of Mus musculus with 2 samples.

Results

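The cytosolic ribosomal protein genes were described across the cell types of the infarcted and the sham-operated mouse heart. A gene was a member if its symbol was Rpl or Rps followed by a digit, or Rpsa, Rplp0, Rplp1 or Rplp2, leaving out 24 names that hold -ps and 10 Rps6k kinase genes. This gave 88 members of the 21745 genes listed in both libraries, 52 with Rpl names (large subunit) and 36 with Rps names (small subunit, counting Rpsa). In the GENCODE vM21 annotation of GRCm38, 85 members were protein-coding genes, Rps3a2 and Rps3a3 were processed pseudogenes, and the symbol Rps4y2 belonged to Rps4l, a transcribed processed pseudogene. The names Rpl7l1 and Rps19bp1 also met the rule although neither is a ribosomal subunit in the usual sense: the first is a nucleolar relative of Rpl7 and the second a binding partner of Rps19.

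RNA was measured by Drop-seq, in which cells are captured in droplets with barcoded beads and every mRNA copy gets its own molecular identifier (UMI), in hearts of wild-type male C57BL6/J mice aged 8 to 10 weeks at surgery. The MI library came from 1 heart taken 14 days after the left anterior descending coronary artery was tied off, a model of myocardial infarction. The sham library came from 4 pooled hearts taken 14 days after the same operation without tightening the suture. Each group being 1 library, conditions could not be compared by a test, and the effect of infarction cannot be told apart from a difference between the libraries. The intervals given are 95% intervals that cover counting error only.

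Each cytosolic ribosome is built from a small and a large subunit, and each subunit holds one copy of nearly every ribosomal protein, so the proteins are made in matched amounts. Their mRNAs are short, abundant and stable, and most begin with a run of pyrimidines, the 5' terminal oligopyrimidine (TOP) tract, through which the growth-sensing kinase mTORC1 sets their translation. Ribosomal protein mRNAs take a large share of the transcriptome in lymphocytes and in growing cells, and mammalian genomes hold many processed copies of these genes.

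The MI data held 8555 barcodes and 33275336 UMIs (median 2466 per barcode) and the sham data 6337 barcodes and 11307405 UMIs (median 1424). After a limit on mitochondrial reads and removal of called doublets, 8294 MI and 5969 sham cells were kept, and 5 barcodes occurred in both libraries. Cells were assigned to classes by lists of marker genes, which left 9.72% of MI and 9.97% of sham cells without a class. The large classes, 3 in number, held at least 50 cells in both libraries and were fibroblast-like (Dcn, Col1a1 and others), macrophage/monocyte-like (Lyz2, Csf1r) and endothelial-like (Pecam1, Cdh5) cells. The fibroblast markers, which are highly expressed, summed to 1333 CPM (UMIs scaled to the total of the class) in MI against 215 CPM in sham macrophage/monocyte-like cells, and to 1099 against 236 CPM in endothelial-like cells; their part in the results was not tested.

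The start of these mRNAs was looked at first, since the TOP tract is what the family is best known for. RefSeq transcription starts on GRCm38.p6 were available for 65 member symbols, and the window of 15 bases on either side of the start was searched on the coding strand for a C followed by at least 5 further C or T. Such a tract was present in 36 of the 65 (55.4%) and in 6883 of all 27025 symbols (25.5%). The windows of the 5 members at least 2-fold higher in MI in any large class follow, with Rpl35, which has the longest tract among those printed. Capitals mark the run found.
Rpl35 (chr2:39005117-39005146, minus strand): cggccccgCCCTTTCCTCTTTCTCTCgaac
Rps27l (chr9:66946071-66946100, plus strand): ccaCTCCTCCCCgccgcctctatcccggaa
Rps9 (chr7:3704026-3704055, plus strand): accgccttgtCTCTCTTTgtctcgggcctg
Rpl22l1 (chr3:28805493-28805522, plus strand): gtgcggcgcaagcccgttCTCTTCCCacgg
Rps26 (chr10:128626492-128626521, minus strand): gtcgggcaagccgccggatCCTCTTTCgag
Rpl41 (chr10:128549154-128549183, minus strand): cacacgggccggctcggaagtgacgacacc
A run in this window need not be the first bases of the mRNA. In Rps27l it began 12 bases before the annotated start and ended, after 9 bases, upstream of it, and in Rpl22l1 and Rps26 it began at the 4th and 5th transcribed base. No such run of letters was found in the window of Rpl41.

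Ribosomal protein mRNAs took a larger share of UMIs in the MI library than in the sham library in each of the 3 large classes, by nearly the same factor. In fibroblast-like cells the members made up 11.01% (11.00 to 11.02) of UMIs in MI, over 3275 cells, and 9.34% (9.31 to 9.37) in sham, over 1858 cells. In macrophage/monocyte-like cells the shares were 10.9% (10.88 to 10.93) over 3738 cells and 9.25% (9.21 to 9.28) over 1431 cells. In endothelial-like cells they were 10.3% (10.21 to 10.31) over 318 cells and 8.65% (8.62 to 8.69) over 1813 cells. The ratio of MI over sham was thus 1.18-fold in fibroblast-like cells, 1.18-fold in macrophage/monocyte-like cells and 1.19-fold in endothelial-like cells (log2 ratios 0.24, 0.24 and 0.25). The cells compared were not of the same clusters: 99.2% of sham fibroblast-like cells lay in 1 cluster (1859 sham and 5 MI cells in all) and 69.9% of MI ones in another (2298 MI and 2 sham cells). Likewise 92.9% of sham macrophage/monocyte-like cells lay in a cluster of 1342 sham and 14 MI cells, and 64.1% of MI ones in a cluster of 2478 MI and 10 sham cells. Library and cell state cannot be told apart here. Single cells overlapped widely between libraries. The middle 50% of MI fibroblast-like cells lay between 9.06 and 12.5% and that of sham cells between 7.80 and 10.7%.

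Lymphocytes stood above every other class in both libraries. T/NK-like cells gave 20.8% (20.5 to 21.0) of UMIs to the members in MI (70 cells) and 17.5% (17.1 to 17.9) in sham (24 cells). B cell-like cells gave 14.8% in MI (36 cells) and 22.2% in sham (19 cells), the only such class with the lower share in MI. The MI B cell-like cells carried B cell markers at 93360 CPM against 7229 CPM in sham, and the median of their single-cell shares was 18.7%; the part of these markers in the lower share was not tested. At the low end were lymphatic endothelial-like cells with 7.97% in MI (11 cells) and 7.08% in sham (70 cells), neutrophil-like cells with 6.58% in MI (22 cells), and Schwann-like cells with 4.11% in sham (8 cells). The share of mural-like cells, which surround blood vessels, was 11.2% in MI from 12 cells and 6.87% in sham from 127 cells. These smaller classes are given as levels, since few cells stand behind at least one of their values.

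**Figure D1:**
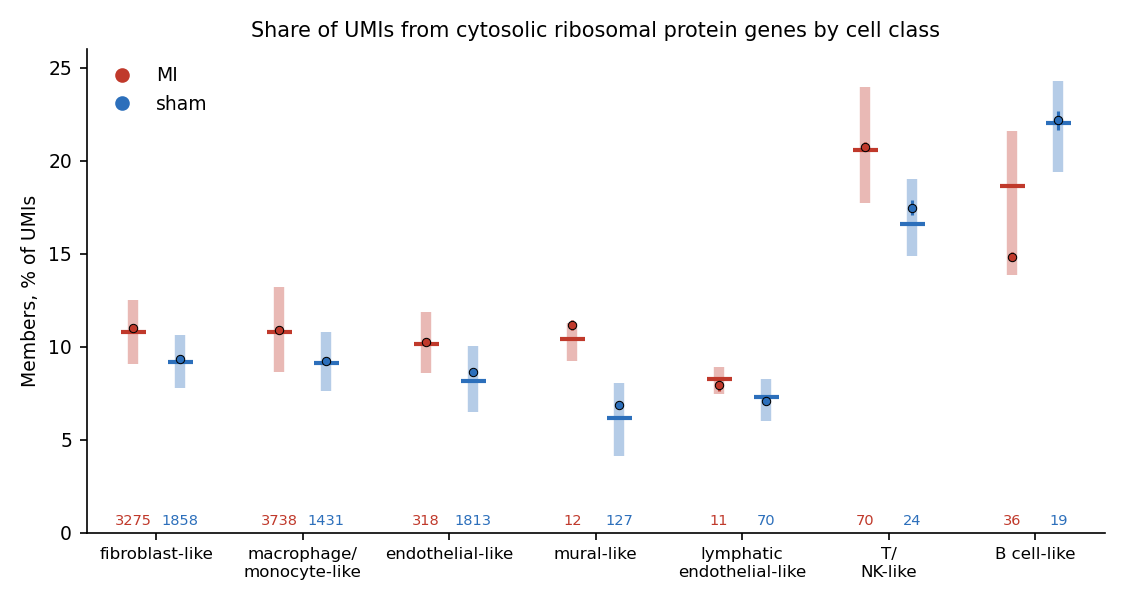
Share of UMIs from the 88 members (% of UMIs, y axis) by cell class (x axis) in MI (red) and sham (blue): points are shares of summed UMIs with 95% counting intervals, dashes and bars the median and middle 50% of single cells, and the numbers at the base the cells. The T/NK-like points at 20.8 and 17.5% lie above the 3 large classes, whose MI points of 11.01, 10.9 and 10.3% lie above the sham points of 9.34, 9.25 and 8.65%.

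The libraries differed in depth, and the size of the fibroblast-like and macrophage/monocyte-like differences depended on which cells were compared. Fibroblast-like cells had a median of 5235 UMIs in MI and 1487 in sham, macrophage/monocyte-like cells 1722 and 1368, and endothelial-like cells 3396 and 1291. Among fibroblast-like cells of 1000 to 3000 UMIs the share was 9.91% in MI (684 cells) and 9.35% in sham (1392 cells), a log2 ratio of 0.08 in place of 0.24. The median depth within this range was still 2094 UMIs in MI and 1571 in sham. With every cell thinned to 500 UMIs the log2 ratio was 0.21, and with each cell given the same weight it was also 0.21. MI fibroblast-like cells over 3000 UMIs, 76.4% of the class, had 11.1%, and the 129 sham cells of that depth had 9.51%. The macrophage/monocyte-like difference was not smaller at 1000 to 3000 UMIs, with 11.3% in MI (2812 cells) and 9.19% in sham (1070 cells) and a log2 ratio of 0.30. It was smaller above 3000 UMIs, with 10.05% in MI (528 cells) and 9.21% in sham (63 cells). Under 1000 UMIs the macrophage/monocyte-like shares were 10.9% in MI (398 cells) and 9.63% in sham (298 cells). The endothelial-like log2 ratio at 1000 to 3000 UMIs was 0.21, from 9.96% in MI (131 cells) and 8.62% in sham (1004 cells). Sequencing depth and the RNA content of a cell cannot be told apart in these values.

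**Figure D2:**
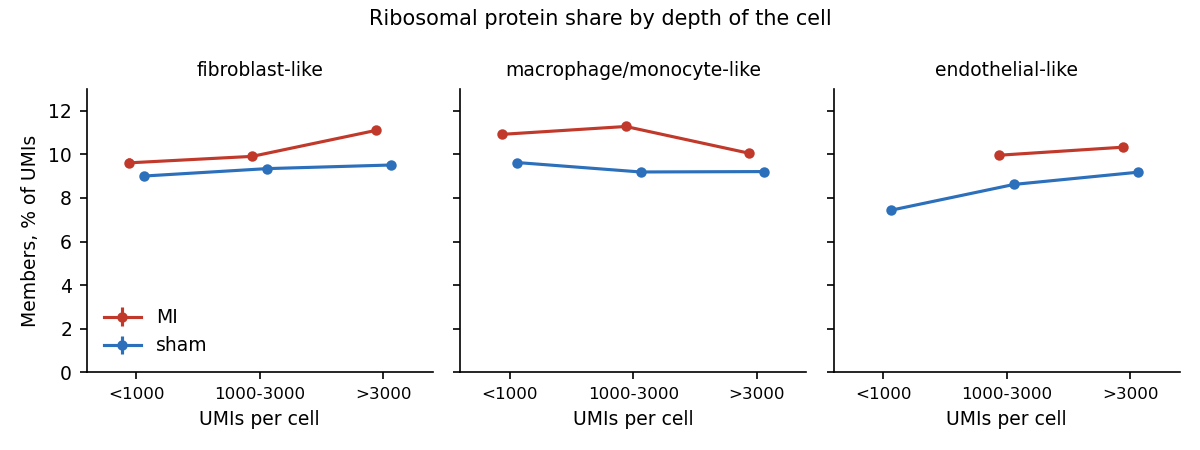
Share of UMIs from the members (y axis, %) by UMIs per cell (x axis, 3 ranges) in the 3 large classes, MI in red and sham in blue, with 95% counting intervals that are mostly smaller than the points; ranges with few cells are not drawn. The fibroblast-like lines are close at 1000 to 3000 UMIs (9.91 and 9.35%) and apart above 3000 (11.1 and 9.51%), while the macrophage/monocyte-like lines are farthest apart at 1000 to 3000 UMIs (11.3 and 9.19%).

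Within a class the share differed between clusters made without the members and their copies. In MI macrophage/monocyte-like cells, the 1010 cells of a cluster led by the MHC class II genes H2-Aa, Cd74 and H2-Eb1 had 13.6% (13.58 to 13.68). The 2397 cells of the main cluster, led by Gpnmb and Slpi, had 9.94% (9.92 to 9.97) at a similar depth (medians 1626 and 1721 UMIs). Thus the main MI macrophage cluster lay closer to the sham cluster led by Lyve1 and Folr2 (9.14%, 1330 cells) than the class as a whole did. Among endothelial-like cells, 1 cluster led by Npr3, a gene of the endocardium, held at least 50 cells of both libraries. Its endothelial-like cells had a share of 10.1% (10.01 to 10.15) in MI (106 cells) and 10.8% (10.63 to 10.92) in sham (83 cells), the opposite order to the class. Their depths differed, with medians of 4654.5 and 1903 UMIs. The whole cluster, 229 MI and 177 sham cells, took no class by its summed markers. This cluster made up 33.3% of MI and 4.58% of sham endothelial-like cells, and the capillary-type cluster led by Cyp26b1 and Pparg, 91.2% of the sham class, had 8.55%. The largest cluster of MI endothelial-like cells, led by Igfbp3, AA467197 and Prss23, had 10.5% (10.44 to 10.58). It held 196 of these cells, 61.6% of the MI class. Among MI fibroblast-like cells, the main cluster had 11.0% (2290 cells). A cluster led by Alas2, Cxcl13 and Lrrn4, with Upk3b also among its 6 leading genes (Lrrn4 and Upk3b are on the mesothelial list), had 11.4% (702 cells), and one led by histone genes 10.5% (184 cells). A further 70 cells fell in a cluster at 10.0% that was led by Olfr558, Olfr78 and Rgs5, with Rgs5 and Myh11 from the mural list among its leading genes.

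Cells with UMIs of at least 2 of 18 cell cycle genes gave a smaller share to the members in each class and library with enough such cells. In macrophage/monocyte-like cells the share was 9.83% in cycling and 11.2% in other MI cells, and 8.53% and 9.31% in sham. In MI fibroblast-like cells, of which 25.7% met this rule, it was 10.8% and 11.1%. In endothelial-like cells it was 10.0% and 10.3% in MI, and 8.46% and 8.68% in sham. Cycling cells also had more UMIs (medians of 2363 against 1658 in MI macrophage/monocyte-like cells); the part of depth was not tested.

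Gene by gene, few members differed by 2-fold or more, and the part of each member in the larger share was not worked out. Members with at least 20 UMIs in a class were compared as CPM of the class total. In fibroblast-like cells 87 members met this minimum, 3 were at least 2-fold higher in MI and 0 at least 2-fold lower, where 13.8% and 20.1% of the 13989 genes compared passed the same folds. In macrophage/monocyte-like cells 2 of 86 were at least 2-fold higher and 1 lower, against 8.89% and 12.2% of 11649 genes. In endothelial-like cells 2 of 85 were higher and 0 lower, against 11.4% and 14.5% of 11011 genes. As shares of the members compared, these counts lay below those of all genes. The genes compared were not matched to the members in UMI number, and the part of this in the lower counts was not tested.

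Small shifts towards MI were frequent. The ratio was above 1 for 56 of 87 members in fibroblast-like cells (41.1% of all genes), for 60 of 86 in macrophage/monocyte-like cells (43.3%) and for 56 of 85 in endothelial-like cells (47.4%). The median log2 ratio of members was 0.10, 0.15 and 0.15, beside -0.20, -0.12 and -0.04 over all genes compared. Of the 85 members measured in all 3 classes, 41 were higher in MI in every class, 13 lower in every class and 31 mixed, where 20.3% of genes were higher and 32.4% lower throughout. In fibroblast-like cells of 1000 to 3000 UMIs the split was 42 above and 44 below and the median -0.02, so the median had the opposite sign there. With each cell thinned to 500 UMIs the fibroblast-like median was 0.09. Scaling by median-of-ratios size factors moved the median of all genes by 0.22 for fibroblast-like and by 0.12 for macrophage/monocyte-like cells. It gave 74 above and 13 below in fibroblast-like cells (50.6% of all genes above), 71 and 15 in macrophage/monocyte-like cells (50.2%), and 62 and 23 in endothelial-like cells (49.8%).

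Both subunits shared in the difference. The Rpl members made up 5.94% of UMIs in MI and 5.04% in sham fibroblast-like cells, and the Rps members 5.07% and 4.30%, a log2 ratio of 0.24 for each. The Rpl share of all member UMIs lay between 51.4 and 55.0% in the 7 classes of both libraries for which it was taken, and was 53.9% in MI as in sham fibroblast-like cells. The balance of the subunits' mRNAs thus varied by a few percentage points at most over classes whose total share ran from 6.87 to 22.2%.

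**Figure D3:**
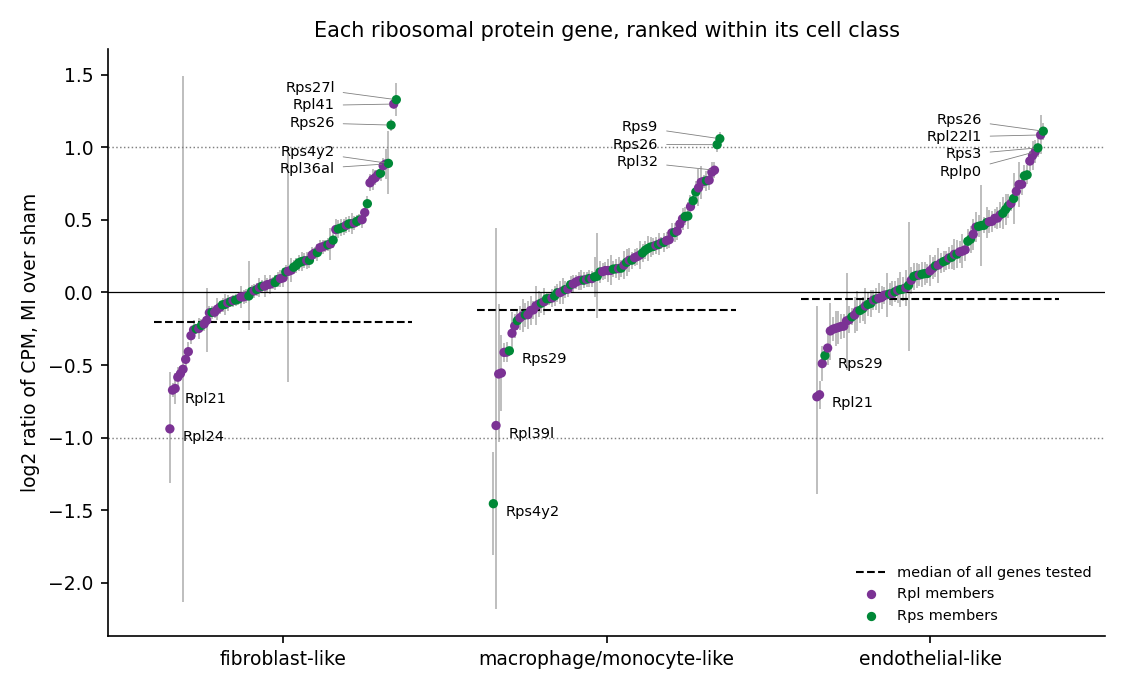
log2 ratio of CPM, MI over sham (y axis), for each member with at least 20 UMIs, ranked within each of the 3 large classes (x axis); Rpl members are purple, Rps members green, grey lines are 95% counting intervals and dashed lines the median of all genes compared. Rps26 lies above the 2-fold line in all 3 classes (1.15, 1.02 and 1.11), and most members lie within 2-fold.

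Among the small-subunit members, Rps26 was the only one at least 2-fold higher in MI in all 3 classes. Rps26, a protein at the channel where mRNA leaves the ribosome and one of the genes mutated in Diamond-Blackfan anaemia, is encoded at chr10:128624534-128626747 (minus strand, ENSMUSG00000025362.6). It was at 4028 CPM in MI (4000 to 4055) and 1810 CPM in sham (1763 to 1858) fibroblast-like cells, 2.23-fold. In macrophage/monocyte-like cells it was at 3492 and 1724 CPM, 2.03-fold, and in endothelial-like cells at 3165 and 1465 CPM, 2.16-fold. Each MI level was above each sham level in these classes. The same order held in T/NK-like cells, with 6778 CPM in MI (6313 to 7269) and 3821 (3234 to 4484) in sham, whereas B cell-like cells had 5230 and 5232 CPM. In fibroblast-like cells of 1000 to 3000 UMIs the log2 ratio was 0.94, below 2-fold.

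Rps9, a protein of the small-subunit body, was at 3798 CPM in MI (3754 to 3843) and 1822 CPM in sham (1766 to 1879) macrophage/monocyte-like cells, 2.09-fold. In fibroblast-like cells the levels were 2181 and 1542 CPM, 1.41-fold, and in endothelial-like cells 2300 and 1311 CPM, 1.75-fold. The MI macrophage/monocyte-like level stood above the other 5 levels of the gene. Rps3, which sits where mRNA enters the ribosome, was at 2335 CPM in MI and 1170 CPM in sham endothelial-like cells, 2.00-fold (log2 0.997, just under the limit), with 1.53-fold in fibroblast-like and 1.44-fold in macrophage/monocyte-like cells. With classes taken from Leiden clusters in place of single-cell markers, the endothelial-like log2 ratio of Rps3 was 0.74.

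Rps29, a small zinc-binding protein of the small-subunit head, was lower in MI in each class. Its levels were 2455 CPM in MI (2434 to 2477) and 2919 CPM in sham (2859 to 2979) fibroblast-like cells, 4283 and 5661 CPM in macrophage/monocyte-like cells, and 2487 and 3363 CPM in endothelial-like cells. The log2 ratios were -0.25, -0.40 and -0.44. Macrophage/monocyte-like cells had the highest level of this gene among the 3 large classes in both libraries. Rps24, another abundant small-subunit member, differed little, at 2246 and 2348 CPM in fibroblast-like cells (log2 -0.06).

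Among the large-subunit members, Rpl41 differed most in fibroblast-like cells. Rpl41 encodes the smallest protein of the ribosome, and its level was 4984 CPM in MI (4953 to 5014) and 2026 CPM in sham (1976 to 2076) fibroblast-like cells, 2.46-fold. The difference was smaller elsewhere, with 3727 and 2191 CPM in macrophage/monocyte-like cells (1.70-fold) and 3617 and 2363 CPM in endothelial-like cells (1.53-fold). The sham levels were thus within a narrow range and the MI fibroblast-like level stood apart. Rpl32 was higher in MI by 1.83-fold in fibroblast-like, 1.79-fold in macrophage/monocyte-like and 1.87-fold in endothelial-like cells, and was 2064 CPM in MI against 1126 CPM in sham fibroblast-like cells.

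A group of large-subunit members was lower in MI throughout. Rpl21 was at 881 CPM in MI (868 to 894) and 1404 CPM in sham (1363 to 1447) fibroblast-like cells, and its log2 ratios were -0.67, -0.41 and -0.71 in fibroblast-like, macrophage/monocyte-like and endothelial-like cells. Rpl10, which joins late and allows the subunits to pair, was at 789 and 1163 CPM in fibroblast-like cells (log2 -0.56) and at 722 and 742 CPM in endothelial-like cells, where the interval of its log2 ratio held 0 (-0.14 to 0.06). Rpl9 had log2 ratios of -0.58, -0.15 and -0.49 and Rpl7a of -0.66, -0.28 and -0.27. Rpl24, a protein of a bridge between the subunits, had the lowest ratio among fibroblast-like members but rested on 254 MI and 75 sham UMIs, 12.6 CPM (11.1 to 14.2) and 24.1 CPM (18.9 to 30.2). None of these reached 2-fold over all fibroblast-like cells. Among those of 1000 to 3000 UMIs, Rpl7a and Rpl24 passed it, with log2 ratios of -1.09 and -1.01.

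The stalk genes encode the arm of the large subunit that recruits translation factors, with Rplp0 as its base and Rplp1 and Rplp2 as its flexible part. All 3 were higher in MI in every large class, to unequal extents. Rplp0 was at 1956 and 1131 CPM in fibroblast-like cells (log2 0.79, 0.74 to 0.84), 1435 and 808 CPM in macrophage/monocyte-like cells (0.83) and 1705 and 870 CPM in endothelial-like cells (0.97). Rplp1 had log2 ratios of 0.81, 0.34 and 0.70 and Rplp2 of 0.31, 0.15 and 0.24 in the same order. Rpsa, which also serves as a precursor of the 67LR laminin receptor, had log2 ratios of 0.19, 0.14 and 0.48.

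Some members are paralogues related to a standard subunit protein, and 3 of them were higher in MI in each large class, by unequal amounts. Rps27l, a paralogue of Rps27 that p53 induces, was at 529 CPM in MI (519 to 539) and 211 CPM in sham (195 to 227) fibroblast-like cells, 2.51-fold, the largest ratio of any member in that class. It was at 307 and 196 CPM in endothelial-like cells (1.57-fold) and at 268 (257 to 280) and 249 CPM (229 to 270) in macrophage/monocyte-like cells, where the intervals overlap. Its partner Rps27 went the other way in fibroblast-like cells, with 1375 and 1512 CPM (log2 -0.14). The coding sequences of the pair are shown to let their relation be read: over the first 253 of 255 coding bases 193 were identical (76.3%), with 60 mismatches in capitals and no gap, so neither met the 90% identity used here for copies that may share reads.
Rps27: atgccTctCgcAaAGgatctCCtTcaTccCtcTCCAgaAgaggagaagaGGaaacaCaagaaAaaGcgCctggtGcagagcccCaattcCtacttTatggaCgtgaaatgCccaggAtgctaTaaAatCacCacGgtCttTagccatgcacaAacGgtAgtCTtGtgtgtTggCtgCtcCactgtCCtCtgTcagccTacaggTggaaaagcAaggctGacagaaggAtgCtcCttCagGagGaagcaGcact
Rps27l: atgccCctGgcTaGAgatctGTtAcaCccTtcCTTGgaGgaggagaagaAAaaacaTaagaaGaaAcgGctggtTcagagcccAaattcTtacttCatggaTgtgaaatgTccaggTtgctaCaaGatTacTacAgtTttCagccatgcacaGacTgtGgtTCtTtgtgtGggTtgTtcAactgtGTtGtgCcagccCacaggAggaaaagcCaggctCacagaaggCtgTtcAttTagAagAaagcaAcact

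Rpl22l1, the paralogue of Rpl22, was at 592 CPM in MI (554 to 632) and 279 CPM in sham (261 to 297) endothelial-like cells, 2.12-fold. It was at 906 and 528 CPM in fibroblast-like cells (1.72-fold) and 447 and 271 CPM in macrophage/monocyte-like cells (1.65-fold). Rpl22 itself was higher by less, with 1.43-fold, 1.25-fold and 1.39-fold in endothelial-like, fibroblast-like and macrophage/monocyte-like cells. In endothelial-like cells of 1000 to 3000 UMIs the log2 ratio of Rpl22l1 was 0.84, below 2-fold. Rpl36al, on chromosome 12 and related to the X-linked Rpl36a, was at 501 and 271 CPM in fibroblast-like cells (log2 0.89), where Rpl36a had 706 and 679 CPM (log2 0.06, -0.01 to 0.12).

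The pseudogene member Rps4y2 (Rps4l, chr6:148354656-148355598, plus strand) was the one whose order differed most between classes. It was at 114 CPM in MI (110 to 119) and 61.7 CPM in sham (53.2 to 71.0) fibroblast-like cells, and at 117 (100 to 135) and 84.8 CPM (75.1 to 95.4) in endothelial-like cells. In macrophage/monocyte-like cells it was at 19.8 CPM in MI (16.7 to 23.2) and 54.2 CPM in sham (45.0 to 64.8), 0.364-fold, the one member at least 2-fold lower in any class. The MI macrophage/monocyte-like level rested on 148 UMIs. In MI T/NK-like cells 2 UMIs of Rps4y2 gave 17.3 CPM (2.09 to 62.3), an interval that held both macrophage/monocyte-like levels of Rps4y2. Its X-linked relative Rps4x had log2 ratios of -0.05, 0.09 and 0.01 in fibroblast-like, macrophage/monocyte-like and endothelial-like cells.

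Paralogues known from muscle and testis were near 0. Rpl3l, made in striated muscle, had 2 UMIs in MI and 1 in sham fibroblast-like cells, 6 and 2 in macrophage/monocyte-like cells and 0 in endothelial-like cells of both libraries, which allows up to 2.45 CPM in MI and 1.12 CPM in sham. Rpl10l had at most 18 UMIs and Rpl39l at most 115 in any large class and library. The look-alike Rps19bp1 was at 54.3 and 55.2 CPM in fibroblast-like cells, and Rpl7l1 was lower in MI macrophage/monocyte-like cells (53.7 and 78.9 CPM, log2 -0.56, -0.81 to -0.29).

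To set the move of one member apart from that of the whole family, each was taken as a share of all member UMIs. Most members kept a similar share across classes, and a few did not. Rps29 made up 3.93% of member UMIs in MI macrophage/monocyte-like cells against 2.23% in fibroblast-like and 2.42% in endothelial-like cells, and 6.12% against 3.12% and 3.89% in sham. The macrophage/monocyte-like share was thus the highest of the 3 in both libraries. Rpl22l1 was highest in fibroblast-like cells in both libraries, with 0.823% against 0.410 and 0.577% in MI and 0.565% against 0.293 and 0.322% in sham (macrophage/monocyte-like before endothelial-like). With Rps4y2 these were the members among the 5 widest ranges over classes in both libraries.

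Rps27l and Rps9 had wider ranges over classes in MI than in sham. Rps27l made up 0.481% of member UMIs in MI fibroblast-like cells against 0.246 and 0.299% in macrophage/monocyte-like and endothelial-like cells. In sham its shares were 0.226%, 0.269% and 0.227% in the same order of classes. Rps9 made up 3.48% in MI macrophage/monocyte-like cells against 1.98 and 2.24% in the other classes, and 1.97% against 1.65 and 1.51% in sham. Rps26 held 3.66, 3.20 and 3.09% in MI and 1.94, 1.86 and 1.69% in sham, so its share differed more between libraries than between classes. Rpsa had the wider range in sham, from 0.631% in endothelial-like to 1.10% in fibroblast-like sham cells.

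**Figure D4:**
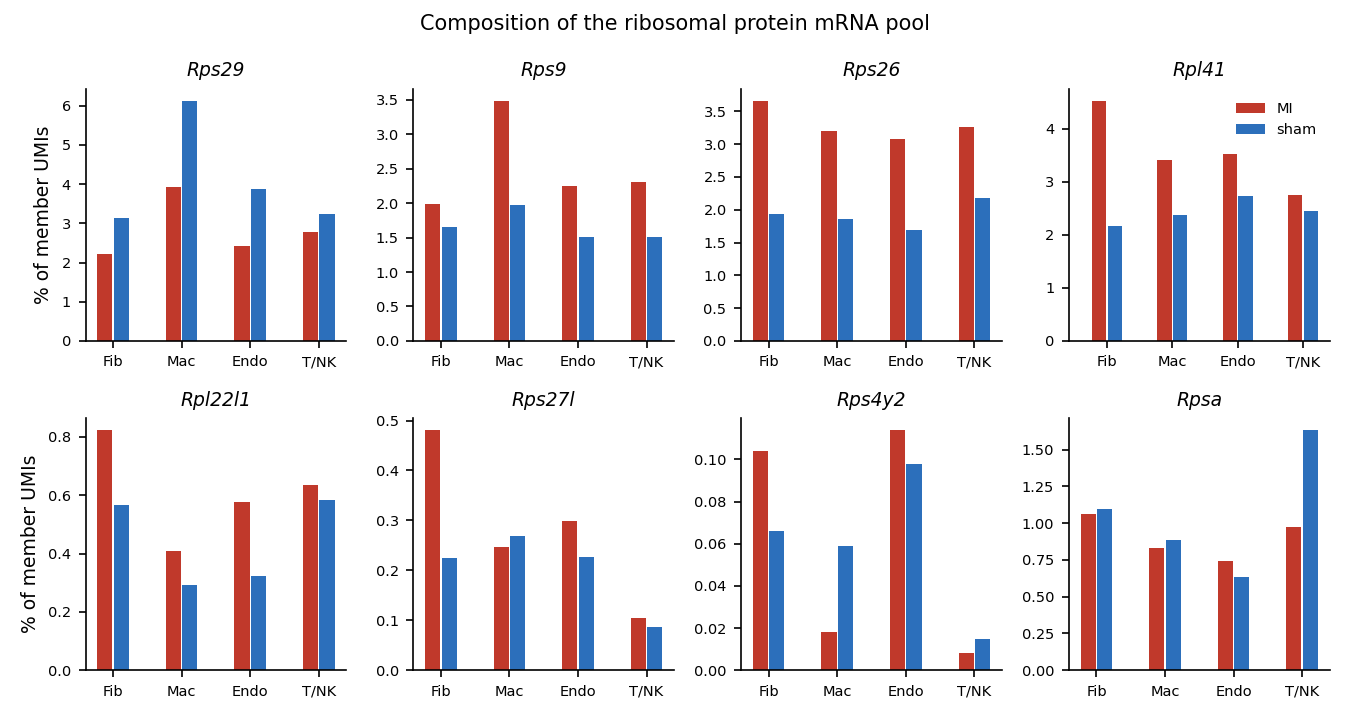
Share of all member UMIs (y axis, %, own scale per panel) held by 8 members in fibroblast-like (Fib), macrophage/monocyte-like (Mac), endothelial-like (Endo) and T/NK-like cells, MI in red and sham in blue. Rps29 is highest in Mac in both libraries (3.93 and 6.12%), Rps26 is higher in MI in each class, and Rps9 in MI Mac (3.48%) and Rps27l in MI Fib (0.481%) stand above their other bars.

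Counting at near-identical copies bears on the values of the members that have them. A search of the GENCODE vM21 transcripts found 80 listed genes that match 35 members at 90% identity or more. Of the members, only Rps3a2 and Rps3a3 were among the genes searched, so no other member could be found as a copy. Some copies held nearly as many UMIs as the member, some held more and others far fewer. In fibroblast-like cells Rpl10-ps3, identical to Rpl10 over 740 bases, had 15941 UMIs in MI where Rpl10 had 15955. Gm10288 had more UMIs than its member Rpl11, 185% as many in MI and 142% in sham. Rps26-ps1 had 82.0% as many UMIs as Rps26 in MI and 89.1% in sham. Gm10076 had 76.6 and 87.8% of the UMIs of Rpl41, and Gm10073 71.5 and 82.4% of those of Rplp1. The proportion differed between libraries by about the same amount in the other large classes: for Rps26-ps1 it was 81.7 and 88.8% in macrophage/monocyte-like and 81.6 and 88.0% in endothelial-like cells.

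The sequences show how close such pairs are. Over the 78 bases of its coding sequence Rpl41 was identical to Gm10076, so only 1 line is needed for both.
Rpl41 and Gm10076: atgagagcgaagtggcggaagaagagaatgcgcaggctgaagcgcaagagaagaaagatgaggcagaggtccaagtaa
Rps26 and Rps26-ps1 shared 346 of 348 coding bases (99.4%). The first 120 are printed, with the 1 mismatch among them in capitals.
Rps26: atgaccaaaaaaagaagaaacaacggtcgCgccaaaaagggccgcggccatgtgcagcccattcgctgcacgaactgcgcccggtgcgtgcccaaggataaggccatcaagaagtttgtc
Rps26-ps1: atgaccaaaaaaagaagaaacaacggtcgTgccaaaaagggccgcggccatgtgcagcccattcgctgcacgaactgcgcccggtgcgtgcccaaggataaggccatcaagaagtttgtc
A read that lies wholly within identical bases fits both genes of a pair. Over the 8294 MI cells the UMIs of Rps26 and Rps26-ps1 had a Pearson correlation of 0.978, those of Rpl41 and Gm10076 of 0.974; both genes of a pair share the cell's depth. Whether the same molecules were counted at both was not tested.

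Adding the copies to their members left some differences in place and made others smaller. With its copy, Rps26 had log2 ratios of 1.10, 0.96 and 1.06 in fibroblast-like, macrophage/monocyte-like and endothelial-like cells, and Rpl41 of 1.21, 0.68 and 0.53. The macrophage/monocyte-like ratio of Rps26 was then just under 2-fold. Rps29 with its copy had -0.26, -0.42 and -0.44. Rpl24 went from -0.94 to -0.47 in fibroblast-like cells and from -0.56 to -0.26 in macrophage/monocyte-like cells, where the interval then held 0 (-0.53 to 0.02). In macrophage/monocyte-like cells Rplp1 went from 0.34 to 0.16 and Rpl9 from -0.15 to 0.00. Rps2, with 9 copies, had a fibroblast-like log2 ratio of 0.44 alone and 0.04 with them, and a macrophage/monocyte-like one of 0.21 alone and -0.25 with them. The sign differed with the copies for 2 of 35 members in each large class. The 53 members without a copy of their own, 52, 51 and 50 of which met the minimum, had summed log2 ratios of 0.22, 0.29 and 0.26. Among them were Rps3a2 and Rps3a3, themselves near-identical copies of Rps3a1 (99.5 and 98.87% identity), so this set was not free of copies. Pairs among the other members, such as Rps4y2 and Rps4x, were not searched. The 35 members with copies had 0.26, 0.17 and 0.22. The 78 copies that are not members made up a further 4.59% of UMIs in MI and 3.87% in sham fibroblast-like cells.

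**Figure D5:**
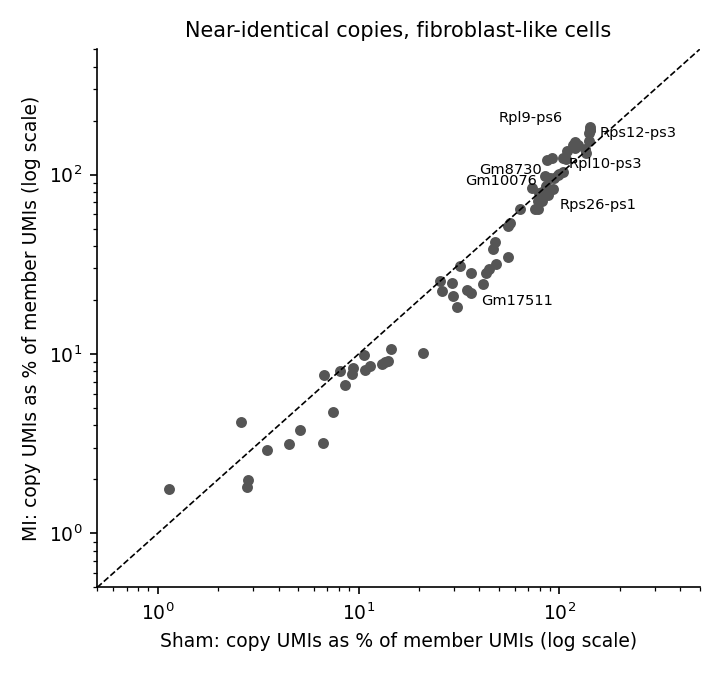
UMIs of each near-identical copy as a percentage of its member's UMIs in fibroblast-like cells, sham (x axis) against MI (y axis), both on log scales, for 74 pairs with enough UMIs; the dashed line marks equal percentages. Rpl10-ps3 lies on the line near 100%, Rps26-ps1 (89.1 and 82.0%) and Gm10076 (87.8 and 76.6%) below it, and Rpl9-ps6 (143 and 177%) above it.

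Members with a tract in the window had the higher median in fibroblast-like and endothelial-like cells and the lower one in macrophage/monocyte-like cells. The difference was not tested. Members with a tract had median log2 ratios of 0.19, 0.13 and 0.24 in fibroblast-like, macrophage/monocyte-like and endothelial-like cells, and those without 0.03, 0.16 and 0.15. Rpl41 was without such letters in its window, while Rps26 and Rps9 had them.

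The other genes of translation were taken as lists beside the members. Of 21 elongation factors and other mRNAs with a TOP start, 16, 16 and 20 were higher in MI in fibroblast-like, macrophage/monocyte-like and endothelial-like cells, with medians of 0.42, 0.27 and 0.38. The shares of all genes above 1 in these classes were 41.1, 43.3 and 47.4%, the background for this count and those of the lists that follow. Eef1b2, a subunit of the exchange factor that recharges eEF1A, was at 1426 and 585 CPM in fibroblast-like cells (log2 1.28, 1.22 to 1.35), with 0.73 and 1.03 in the other classes. Npm1, a nucleolar chaperone, was at 777 and 341 CPM in fibroblast-like cells (log2 1.19). Gnb2l1, which encodes the ribosome-bound scaffold RACK1, had log2 ratios of 0.91, 0.51 and 0.84. Fau, whose product includes a small-subunit protein but whose name lies outside the rule, had a log2 ratio of -0.05 in fibroblast-like cells.

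The 24 other initiation genes had medians of 0.19, 0.10 and 0.28. Eif4ebp1, the mTORC1-controlled inhibitor of cap binding, was at 116 CPM in MI and 37.6 CPM in sham fibroblast-like cells (log2 1.63, 1.36 to 1.91). The helicase gene Eif4a2 was lower there, with 97.8 and 245 CPM (log2 -1.32), and Eif1, which guards start codon choice, was lower in each class (-0.69, -0.74 and -0.65). Ribosome biogenesis genes, 40 in all, had medians of -0.01, 0.14 and 0.24. Nhp2, a core protein of RNA-guided pseudouridylation, had log2 ratios of 1.35, 1.18 and 1.10, and Ncl, the nucleolin gene, of 0.79, 0.70 and 0.75. Ltv1, which helps export small subunits, was at 74.3 and 21.0 CPM in endothelial-like cells (log2 1.83, 1.38 to 2.28), and Rrs1 was lower in MI fibroblast-like cells (-0.88).

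The mitochondrial ribosomal protein genes, which serve a separate ribosome, stood higher in MI than the cytosolic ones by this measure. Of 77 such genes 76 met the minimum in each class, and 66, 60 and 62 were above 1 (all genes 41.1, 43.3 and 47.4%), with medians of 0.38, 0.30 and 0.40. Mrpl54 was at 110 and 39.5 CPM in fibroblast-like cells (log2 1.48) and Mrpl52 at 335 and 144 CPM (1.22). Of 6 snoRNA host genes, whose introns carry guide RNAs for ribosomal RNA, 4, 6 and 6 were above 1, beside the same shares of all genes. Snhg3 had log2 ratios of 1.16, 1.41 and 1.76, and Snhg6 of 1.48, 1.06 and 1.52. The difference between the medians of these lists and that of the members was not tested.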

How the data were processed

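Drop-seq libraries of 1 infarcted heart and 4 pooled sham hearts were used as deposited: raw UMI counts per gene and barcode, 1 table per library, with at least 500 genes per barcode. The submitters' processing notes name mm10 and Seurat; for the aligner, the counter and the treatment of reads with several matches, the sources used here give nothing. The labels' protocols describe fixation and embedding of the hearts. The members and lists were chosen with earlier results of these data known.

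Cells with at most 25% mitochondrial UMIs were kept (114 MI and 34 sham barcodes left out), and doublets called by scrublet in scanpy 1.11.5 (147 and 334) were removed. A cell took a class with at least 3 UMIs over background from at least 2 markers of it and 3 times those of any other class. UMIs were summed per class. CPM has exact Poisson intervals, shares exact Clopper-Pearson intervals and ratios exact conditional binomial intervals (95%, scipy 1.17.1). Genes with at least 20 UMIs over both libraries were compared, and "2-fold" is a size, not a test. Leiden clusters (leidenalg 0.10.2, resolution 0.8, 2000 variable genes, 30 components, 20 neighbours) left out members and copies. Copies were found with BLAST 2.17.0 at 90% identity over at least 150 bases and 50% of the copy. The genes searched left out all members except Rps3a2 and Rps3a3. Named members were drawn from those with the 5 interval bounds farthest above and below 0 per class or the 5 highest CPM. The 5 widest ranges of pool share per library, the paralogues, stalk genes and Rpsa were also drawn on. Not all members that meet this rule are described, and Rpl10a, Rpl13, Rpl23a, Rpl29 and Rps14 are among those left out. Rps2, Rpl35, Fau and the copies were named after their values were seen. A simulation used Poisson counts and drew its changed genes only from those with at least 20 expected sham UMIs. Its ratios were corrected for the known shift of the totals. For 2-fold changes the ratio interval excluded 0 for 98.9, 96.3 and 88.6% of changed genes in fibroblast-like (13989 genes simulated), macrophage/monocyte-like (11649) and endothelial-like cells (11011). Changes in genes with fewer sham UMIs were not covered.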

Additional observations from a re-analysis of the deposited data

Results flagged for a closer look

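Rps4y2 (Rps4l) had opposite orders of MI and sham in different classes. Its log2 ratio was 0.89 in fibroblast-like, 0.46 in endothelial-like and -1.46 in macrophage/monocyte-like cells. The fibroblast-like ratio lay 2.35 above the macrophage/monocyte-like one on the log2 scale, and the endothelial-like ratio 1.92 above it. With 1 library per group the difference between classes was not tested.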

How the results depend on the processing

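With 1 library per group no replicate could be left out, and no paired analysis was possible because each group has 1 library and no test was run. Cells of 1000 to 3000 UMIs gave share log2 ratios of 0.084 (fibroblast-like), 0.295 (macrophage/monocyte-like) and 0.21 (endothelial-like), a fibroblast-like median of -0.02, the opposite sign to 0.10, 2 fibroblast-like members 2-fold lower and 1 endothelial-like member 2-fold higher; the cause was not tested. Thinning each cell to 500 UMIs gave 0.21, 0.26 and 0.27, with 1 fibroblast-like and 0 macrophage/monocyte-like members 2-fold lower and 4 endothelial-like higher. Weighting cells equally gave 0.21, 0.26 and 0.295, with 2 macrophage/monocyte-like members lower and 5 endothelial-like higher. Median-of-ratios scaling gave 0.46, 0.36 and 0.29, medians of 0.32 and 0.27 in the first 2 classes, and 9 fibroblast-like and 4 endothelial-like members 2-fold higher. Scaling to other nuclear genes gave 0.28, 0.315 and 0.29, a macrophage/monocyte-like median of 0.23 and 4 endothelial-like members higher. Without cycling cells the first 2 ratios were 0.25 and 0.26, and with at most 10% mitochondrial UMIs 0.245 and 0.27. Without barcodes ending in N the fibroblast-like ratio was 0.23, the endothelial-like 0.27, and 1 macrophage/monocyte-like member was 2-fold higher and 2 lower. The stricter gate gave an endothelial-like 0.27 and Leiden clusters 0.29. With at least 1 UMI as minimum, 1 fibroblast-like member was 2-fold lower. Further settings were chosen after seeing the data. Members without copies among the genes searched gave 0.22, 0.29 and 0.26 with 1 member 2-fold higher in each class. This set still held Rps3a2 and Rps3a3. Members summed with copies gave a macrophage/monocyte-like 0.23 with 1 higher. Leaving out pseudogenes and look-alikes gave a macrophage/monocyte-like 0.246 with 0 lower. For single members, 30 pairs of member and class were recomputed. They were the members with the 5 interval bounds farthest above and the 5 farthest below 0 in each class. Being picked as far from 0 in these same data, they could hardly change sign, so the other members are not covered. Under 6 settings (stricter gate, Leiden clusters, 1000 to 3000 UMIs, both other scalings, without cycling cells) 131 values stayed within their counting interval, 49 did not and 0 changed sign. Adding copies was not among these 6; it changed the sign of 2 of 35 members in each class.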
